A study of Mus musculus with 6 samples.

Results

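The genes described here are 10 members of the Kruppel-like factor (KLF) family of transcription factors, Klf1, Klf2, Klf3, Klf4, Klf5, Klf6, Klf9, Klf10, Klf13 and Klf15, in denervated gastrocnemius muscle of mice fed maslinic acid (MA). They were taken by name, as all probe sets whose only gene in the platform annotation is one of the 10, which gave 24 of the 45037 probe sets and 10 of the 17097 named genes of the array. RNA was hybridized to 6 Affymetrix mouse arrays, 3 for each diet. The MA group ate a diet with 0.27% MA, a triterpene of olive peel, and the control group ate the AIN-93G diet without it. All were male Slc: ICR mice, bought at 7 weeks of age and acclimated for a week before the diets began, whose sciatic nerves were cut in both legs after a further week on the diet, and the muscle was taken on day 14 after surgery. Both groups were therefore denervated, and muscle with an intact nerve was not analysed here. The sources do not say whether each array held the RNA of 1 mouse or of pooled mice, and the p-values therefore rest on the variation from array to array, which may be technical.

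KLF proteins share C2H2 zinc fingers at the C terminus, which bind GC-rich DNA and CACCC sequences, and differ in the rest of the protein. One branch (Klf1, Klf2, Klf4, Klf5 and Klf6 among these genes) holds mostly activators that recruit acetylases. A further branch (Klf3, with Klf8 and Klf12) binds the corepressor CtBP, and another (Klf9, Klf10, Klf13, with Klf11 and Klf16) binds the corepressor Sin3. In skeletal muscle Klf15 is known as a glucocorticoid-induced regulator of amino acid breakdown and lipid use, Klf9 also responds to glucocorticoids, and Klf10 is an early target of TGF-β. Klf2 and Klf4 are best known from the endothelium, where blood flow induces them, and from macrophages, and Klf1 from red blood cell precursors.

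Values are log2 RMA values, 1 for each probe set and array, and a difference is MA minus control on that scale, with the standard error of limma. "Fell" and "rose" are used where the limma p, after Benjamini-Hochberg adjustment across the 45037 probe sets, was under 0.05. Where a gene had several probe sets, the brightest over the 6 arrays stands for it, and the others are given beside it. The background was read from the probe sets for nonspecific binding, which reached 3.95. One more of them, made only of G and C, stood apart at up to 7.33. It was left out of the background after the data were seen, and serves below only as an alternative filter. By their brightest probe sets, Klf1, Klf2, Klf3, Klf5, Klf13 and Klf15 lay under 7.33 in both groups. Across probe sets, Pearson's r was 0.9934 to 0.9937 between an MA and a control array and 0.9992 to 0.9997 between 2 arrays of one diet. The median difference over all genes was 0.006, while all 18 probe sets for the hybridization controls, which are spiked in before hybridization, were brighter on the MA arrays (median difference 0.17). The 9 markers of muscle fibers averaged 12.28 on every array of the MA group and 12.17 on every control array. Of the 9, 6 rose and 3 did not pass, while 24.7% of all genes rose.

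All 10 genes matched the RefSeq gene table (GRCm38.p6), on 9 chromosomes, with Klf1 and Klf2 both on chromosome 8, and 8 of them matched its promoter table. The 250 bases before the start site are printed for 4 genes that fell in the MA group and for Klf15, which did not pass the test, so that the letters of genes with different outcomes can be set beside each other. They are Klf2 at chr8:72318812-72319061 (plus strand), Klf4 at chr4:55532476-55532725 (minus strand), Klf6 at chr13:5861239-5861488 (plus strand), Klf9 at chr19:23140976-23141225 (plus strand) and Klf15 at chr6:90462326-90462575 (plus strand). The Klf15 start lies inside the RefSeq gene, whose first base is at 90461043. Capitals mark matches on either strand to the KLF box CACCC, the GC box GGGCGG, the E-box CACGTG, the core TGACG of the cyclic AMP response element and the site of MEF2 factors, and neighbouring or overlapping matches run together.
Klf2: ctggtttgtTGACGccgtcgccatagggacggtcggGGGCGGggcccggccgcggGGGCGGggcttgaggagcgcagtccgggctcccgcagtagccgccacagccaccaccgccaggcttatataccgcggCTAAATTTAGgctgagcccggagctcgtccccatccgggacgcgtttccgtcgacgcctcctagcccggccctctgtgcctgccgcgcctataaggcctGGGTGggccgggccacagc
Klf4: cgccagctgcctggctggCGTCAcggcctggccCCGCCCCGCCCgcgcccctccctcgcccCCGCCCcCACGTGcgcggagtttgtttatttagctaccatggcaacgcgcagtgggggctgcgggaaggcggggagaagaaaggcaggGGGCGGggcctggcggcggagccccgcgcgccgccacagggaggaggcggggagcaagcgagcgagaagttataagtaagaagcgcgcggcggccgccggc
Klf6: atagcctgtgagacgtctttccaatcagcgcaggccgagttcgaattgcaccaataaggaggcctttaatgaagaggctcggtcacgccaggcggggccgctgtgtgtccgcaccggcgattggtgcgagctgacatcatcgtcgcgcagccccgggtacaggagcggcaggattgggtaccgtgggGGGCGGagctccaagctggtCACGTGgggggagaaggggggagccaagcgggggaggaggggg
Klf9: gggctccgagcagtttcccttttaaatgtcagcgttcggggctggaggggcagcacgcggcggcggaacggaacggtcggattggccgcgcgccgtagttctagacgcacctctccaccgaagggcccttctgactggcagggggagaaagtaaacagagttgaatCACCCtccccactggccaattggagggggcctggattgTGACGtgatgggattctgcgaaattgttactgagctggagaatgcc
Klf15: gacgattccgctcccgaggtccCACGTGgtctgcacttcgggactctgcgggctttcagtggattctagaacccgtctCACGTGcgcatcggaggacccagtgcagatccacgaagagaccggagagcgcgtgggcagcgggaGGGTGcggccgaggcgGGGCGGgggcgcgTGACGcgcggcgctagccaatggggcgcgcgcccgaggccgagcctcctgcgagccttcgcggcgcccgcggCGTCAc

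The KLF box was found in 6 of the 8 promoters of these genes, against 52% of all 32851 promoters of the table, and the GC box also in 6 of 8, against 32.7%. The core TGACG was in 5 of 8, against 17.8%, and the E-box in 3 of 8 (Klf4, Klf6 and Klf15), against 6.02%. The MEF2 site was found only before Klf2 among the 8, at bases -118 to -109, against 2.92% of all promoters. Klf15, which did not pass, held 2 E-boxes and 2 TGACG cores, and Klf9, which fell, held a KLF box and a TGACG core. The GC content of the 8 ran from 49.2% (Klf1) to 78.4% (Klf3), and the shares over all promoters were not matched for it. Klf5 and Klf10 had no promoter in the table. These matches are of letters only and say nothing of bound factors.

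**Figure D1:**
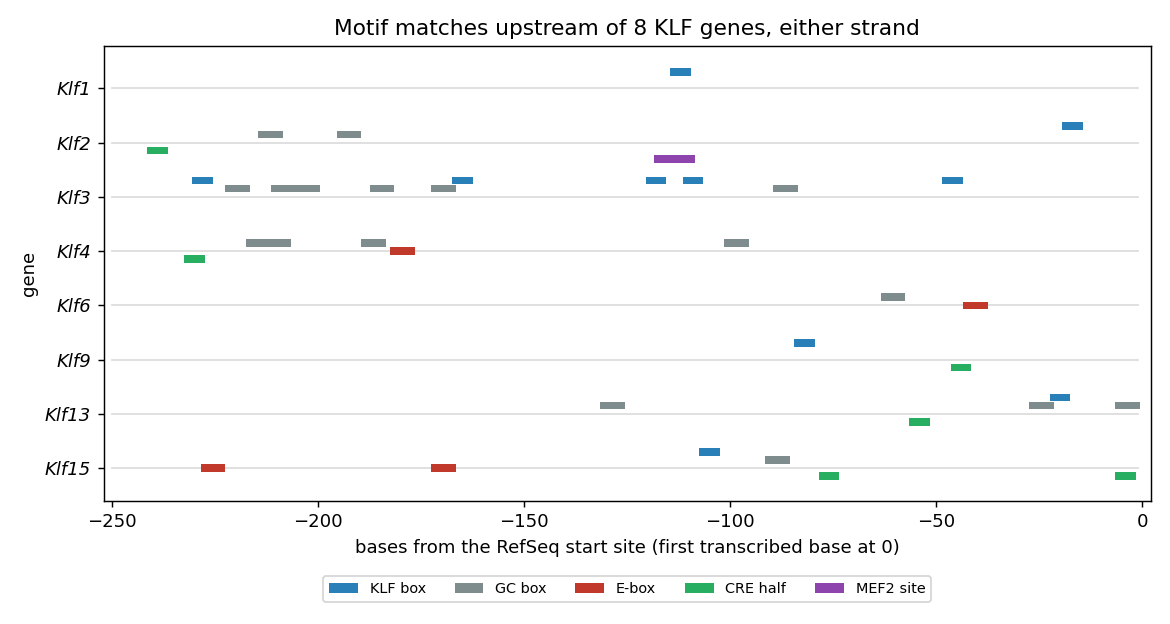
Position of each motif match in the 250 bases before the start site of the 8 genes with a promoter in the table, with distance from the start site in bases on the x axis and genes on the y axis. Klf3 had 6 GC boxes and 5 KLF boxes, and Klf1 had 1 KLF box and no match to the other motifs.

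Of the 10 genes, 7 fell in the MA group (Klf10, Klf2, Klf6, Klf4, Klf3, Klf9 and Klf13), none rose, and Klf15, Klf1 and Klf5 did not pass the test. The falls ran from 1.39-fold for Klf13 to 2.19-fold for Klf10. Over all 17097 genes 23.0% fell, 24.7% rose and 47.8% passed in either direction. All 7 falls were over 1.2-fold, the size named in the study's methods, as were those of 6.87% of all genes. In the same 7 genes every MA array lay under every control array, as in 27.8% of all genes. By probe sets, 16 of the 24 fell and none rose, while 21.4% of all probe sets fell and 42.9% passed in either direction. The median difference of the 10 genes was -0.51, and that of all genes was 0.006. Because the genes were chosen with earlier results of these arrays known, these counts are a description of the family.

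**Figure D2:**
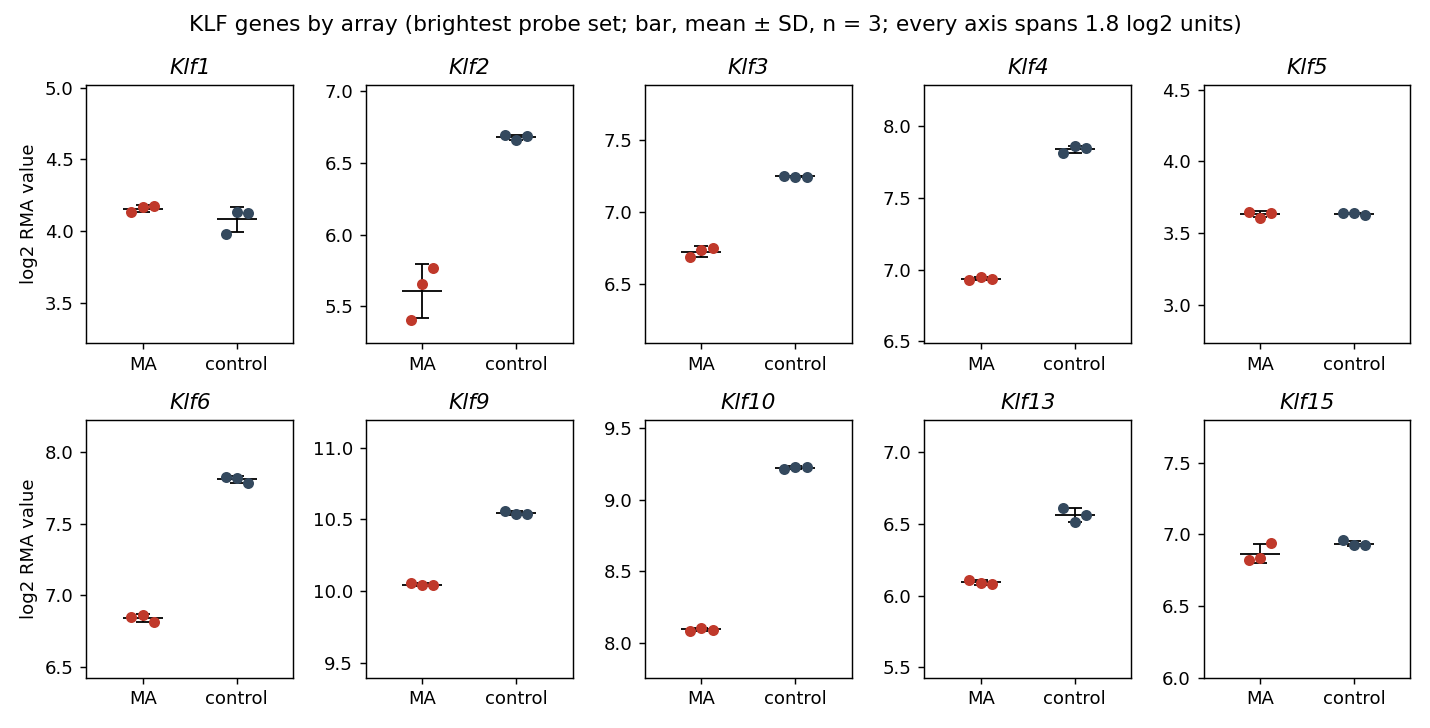
Log2 RMA value (y axis) of the brightest probe set of each of the 10 genes on the 3 MA and the 3 control arrays, with 1 point for each array and a line at the group mean. The MA points lie under the control points for the 7 genes that fell, and the groups overlap for Klf15, Klf1 and Klf5.

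Klf10, an early target of TGF-β that acts mostly as a repressor of growth, had the largest fall of the 10. Its single probe set read 8.08, 8.11 and 8.09 in the MA group, against 9.21, 9.23 and 9.23 in the control group. The arrays lay close together, with an SD of 0.012 among the MA arrays and 0.0095 among the controls, and the groups did not overlap. The difference was -1.13 ± 0.021 (SE, n = 3 each), or 2.19-fold lower, with an adjusted p of 5.87e-09 by limma, and only 0.345% of all genes had a lower difference. Leaving out each array in turn gave -1.13 to -1.12.

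Klf9, a repressor induced by glucocorticoids and thyroid hormone, read 10.05, 10.04 and 10.04 in the MA group, against 10.56, 10.54 and 10.54 in the control group. It fell 1.41-fold, with a difference of -0.50 ± 0.021 (SE, n = 3 each; adjusted p = 5.36e-07 by limma). Of its 4 other probe sets, 3 fell, with differences of -0.44, -0.60 and -0.47. The last, 1452723_PM_at, had a difference of 0.06, did not pass (adjusted p = 0.0737), and lay higher on every MA array, at 5.38, 5.37 and 5.33, against 5.31, 5.31 and 5.27 in the control group. Which part of the transcript each probe set reads was not examined.

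Klf13, also of the Sin3-binding branch and known in T cells as an activator of a chemokine gene, read 6.11, 6.09 and 6.08 in the MA group, against 6.61, 6.51 and 6.56 in the control group. The groups did not overlap, and the difference was -0.47 ± 0.029 (SE, n = 3 each; adjusted p = 4.85e-06 by limma). A second probe set read 4.48, 4.56 and 4.62 in the MA group, against 5.14, 5.10 and 5.24 in the control group, a difference of -0.61, and it fell too (adjusted p = 1.32e-05 by limma). The third, close to the background with values of 3.93 to 4.03 in the MA group and 3.97 to 4.05 in the control group, had a difference of -0.04 and did not pass (adjusted p = 0.328).

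In the activator branch, Klf2, which maintains quiescence in endothelium and T cells, read 5.40, 5.65 and 5.77 in the MA group, against 6.69, 6.66 and 6.68 in the control group. The MA arrays spread more widely (SD 0.188) than the control arrays (SD 0.018), yet the highest of them stayed far under the lowest control. Klf2 fell 2.10-fold, with a difference of -1.07 ± 0.079 (SE, n = 3 each; adjusted p = 1.47e-05 by limma), and of -1.15 to -0.97 with each array left out in turn.

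Klf6, an early response gene of injured tissue that also drives inflammatory genes in macrophages, read 6.85, 6.87 and 6.82 in the MA group, against 7.83, 7.82 and 7.79 in the control group. It fell 1.95-fold, by -0.97 ± 0.024 (SE, n = 3 each; adjusted p = 2.96e-08 by limma). All 3 of its probe sets fell, and the groups overlapped in none of them. The second read 6.47, 6.50 and 6.50 in the MA group, against 7.25, 7.33 and 7.31 in the control group (difference -0.80). The third and dimmest read 4.63, 4.61 and 4.66 in the MA group, against 5.35, 5.28 and 5.20 in the control group (difference -0.65).

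Klf4, one of the pluripotency factors and a regulator of smooth muscle and macrophage state, read 6.93, 6.95 and 6.94 in the MA group, against 7.82, 7.86 and 7.85 in the control group. The difference was -0.90 ± 0.023 (SE, n = 3 each), or 1.87-fold lower (adjusted p = 2.96e-08 by limma). Its second probe set read 5.52, 5.64 and 5.72 in the MA group, against 6.41, 6.32 and 6.27 in the control group, and fell with a difference of -0.71 (adjusted p = 1.76e-05 by limma). Again every MA array lay under every control array.

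Klf1, the erythroid factor, and Klf5, known from epithelium and smooth muscle, complete this branch. Klf1 read 4.13, 4.17 and 4.17 in the MA group, against 3.98, 4.13 and 4.13 in the control group, which is just over the background, and the groups overlapped. Its difference was 0.08 (95% interval -0.02 to 0.17; adjusted p = 0.18 by limma), and 0.025 without control replicate 1, the lowest of the 6 arrays. Klf5 lay under the background on all arrays, at 3.61 to 3.64 in the MA group and 3.63 to 3.64 in the control group, so that a change could not be read. Of 16 erythroid genes, 8 were under the background in both groups, 2 rose, 2 fell and 12 did not pass, with a median of -0.01. Hba-a1, the brightest, fell by 0.07, while Nfe2, with a difference of 0.21, and Tal1, with -0.12, passed at levels under the background.

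Klf3, a repressor that recruits CtBP and takes part in muscle and fat cell differentiation, was split over its 6 probe sets, of which 3 fell and 3 did not pass. The brightest read 6.68, 6.74 and 6.75 in the MA group, against 7.25 on each of the 3 control arrays. It fell 1.44-fold, by -0.52 ± 0.025 (SE, n = 3 each; adjusted p = 1.10e-06 by limma). Among the 5 others, 2 fell, with differences of -0.52 and -0.25, and 3 did not pass, with differences of -0.07, -0.03 and -0.02. Of those 3, 1442920_PM_at lay under the background, 1441200_PM_at lay close to it at 4.27 to 4.32 in the MA group and 4.31 to 4.40 in the control group, and 1431630_PM_a_at was well over it, at 6.09 to 6.11 in the MA group and 6.07 to 6.19 in the control group. The mean over the 6 probe sets gave -0.24, still past the test.

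**Figure D3:**
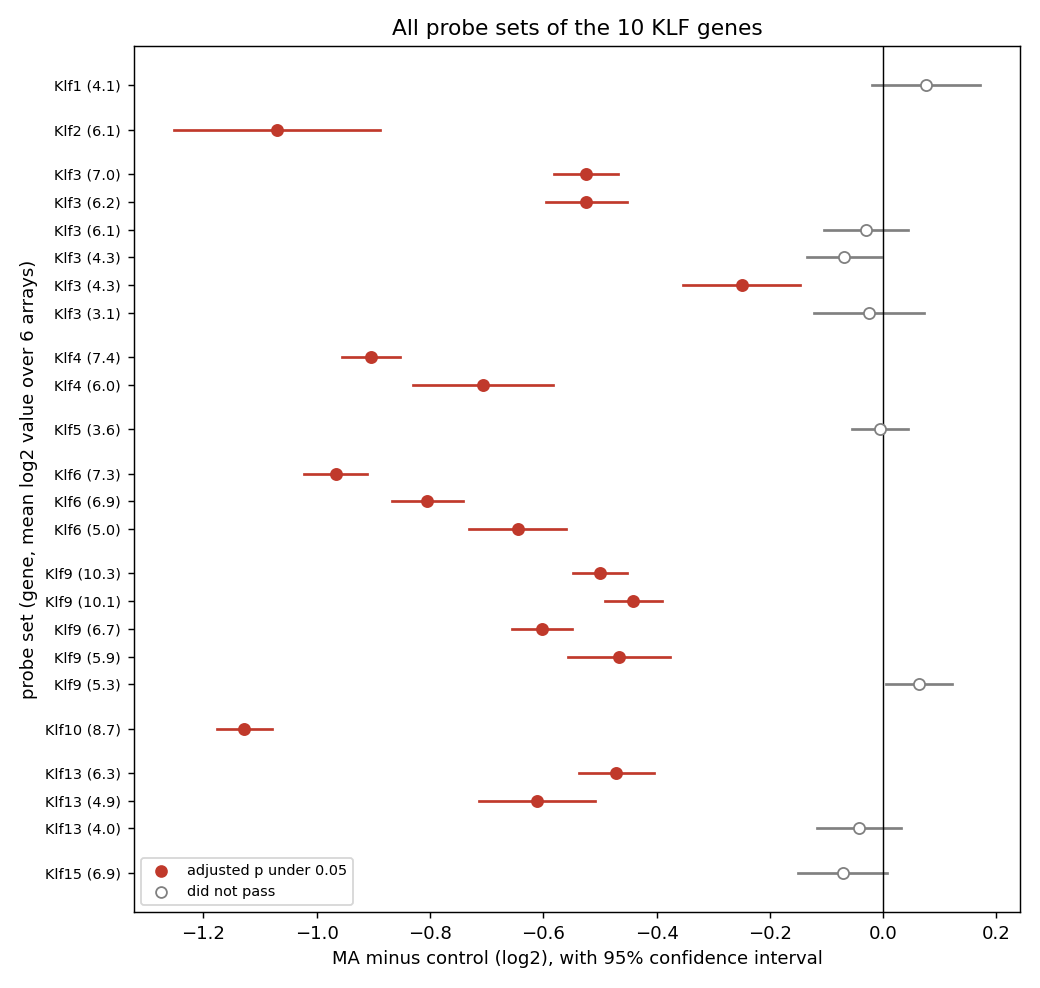
Difference of MA minus control on the log2 scale with its 95% interval for each of the 24 probe sets, grouped by gene, filled where the adjusted p was under 0.05. All probe sets of Klf6 and Klf4 lie under 0, while 3 of 6 for Klf3, 1 of 5 for Klf9 and 1 of 3 for Klf13 did not pass.

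Klf15, which in muscle drives the breakdown of branched-chain amino acids, read 6.82, 6.83 and 6.94 in the MA group, against 6.96, 6.92 and 6.92 in the control group. The groups overlapped through MA array 3, the difference was -0.07 ± 0.034 (SE, n = 3 each; 95% interval -0.15 to 0.01), and the adjusted p was 0.13 by limma. Without that array the difference was -0.11 and passed (adjusted p = 0.0159). Even the low end of the interval is a smaller change than that of any of the 7 genes that fell.

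**Figure D4:**
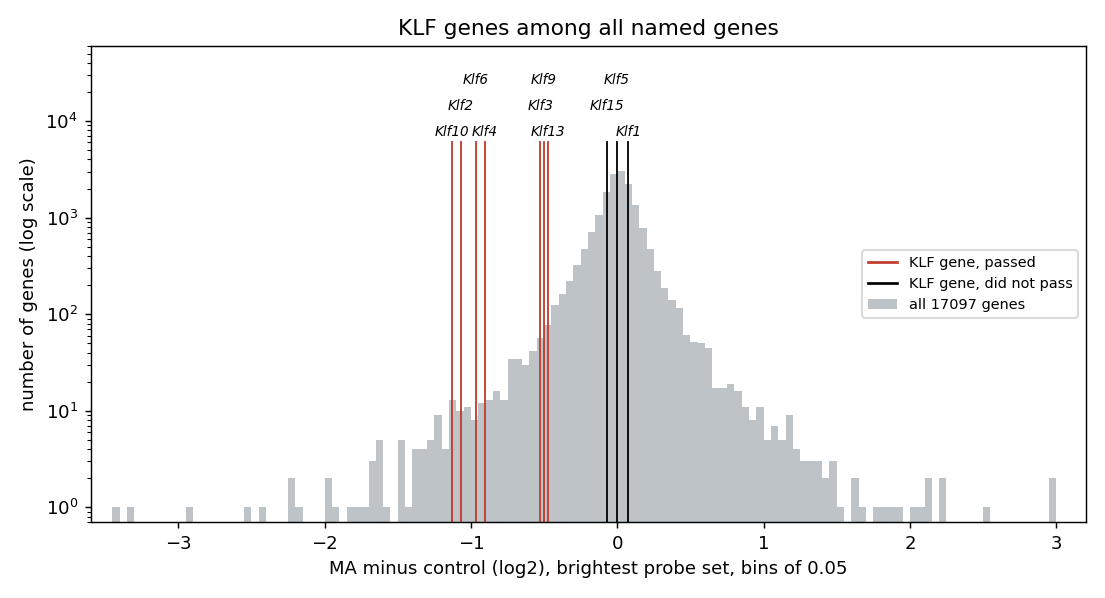
Distribution of MA minus control on the log2 scale over all 17097 genes (bars, number of genes on a log y axis), with the 10 KLF genes marked. From 0.345% to 2.28% of all genes had a lower difference than each of the 7 that fell, against 25.9% for Klf15, 45.8% for Klf5 and 73.1% for Klf1.

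Of the other family members on the array, Klf11, a close relative of Klf10, also fell, and Klf12, the CtBP-binding relative of Klf3, rose. Klf11 read 6.68, 6.66 and 6.68 in the MA group, against 6.99 to 7.01 in the control group, a difference of -0.33 (adjusted p = 6.36e-06 by limma). Klf12 read 5.85, 5.83 and 5.84 in the MA group, against 5.30, 5.13 and 5.23 in the control group, a difference of 0.62 (adjusted p = 6.43e-06 by limma), and 4 of its 5 probe sets rose. Klf16, with -0.06, and Klf17, with 0.10 at levels under the background, did not pass. Klf7, Klf8 and Klf14 were not analysed here. The 14 KLF genes read in all thus held 8 that fell, 1 that rose (Klf12) and 5 without a call.

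The SP factors are zinc finger proteins that bind the same GC boxes. Among their 7 genes on the array, 2 fell, 1 rose and 4 missed the threshold, with a median of 0.03. Beside this and every other list count stand the shares over all 17097 genes, of which 23.0% fell and 24.7% rose. Sp3, the brightest, had the largest fall (-0.46), Sp1, the general activator, differed by -0.41, and Sp7, a bone factor, rose by 0.07. Among 17 cofactors and ubiquitin ligases of KLF proteins, 7 fell, 5 rose and 5 did not pass, with a median of -0.07. Mef2a, a muscle transcription factor and the brightest of them, fell (-0.15), and the acetylase gene Crebbp had the largest fall (-0.38). The ligase genes Wwp1 and Fbxw7, whose products mark KLF proteins for degradation, rose by 0.56 and by 0.45. Sin3b, which encodes a Sin3 corepressor, differed by -0.33 and Ctbp2 by -0.11, while Ctbp1, with -0.04, did not pass (adjusted p = 0.193 by limma). Sp1, Fbxw7, Sin3b, Ctbp1 and Ctbp2 were picked after their values were seen.

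Klf15 and Klf9 belong to the glucocorticoid response, and 17 other genes induced by the glucocorticoid receptor were measured, of which 11 fell and 6 rose, with a median of -0.23. Fkbp5, a cochaperone of the receptor, rose by 0.44 and the kinase gene Sgk1, the brightest, by 0.12. Angptl4, an inhibitor of lipoprotein lipase, read 5.50, 5.58 and 5.55 in the MA group, against 7.03, 7.01 and 7.02 in the control group, and had the largest fall (-1.48). The receptor gene Nr3c1, which is in the cofactor list, differed by 0.21, and Tsc22d3, another direct target, by -0.49 (both picked after their values were seen).

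Klf15 is known to drive the breakdown of branched-chain amino acids and alanine. Of 20 genes listed for it, 14 rose, 3 fell and 3 did not pass, with a median of 0.16. The count pools enzyme genes with the kinase gene Bckdk, whose product inhibits this breakdown, and with Prodh, which acts on proline. Pcca, a subunit of propionyl-CoA carboxylase, read 8.30, 8.29 and 8.26 in the MA group, against 7.67, 7.70 and 7.68 in the control group, the largest rise (0.60). Hibadh, the brightest, rose by 0.16. Bckdha, a subunit of the branched-chain ketoacid dehydrogenase, had the largest fall (-0.23), although Bckdhb, which encodes its partner subunit, differed by 0.44. Bcat2, the first enzyme of the pathway, and Prodh, both known Klf15 targets, had differences of 0.10 and 0.03 and did not pass (adjusted p = 0.122 and 0.545 by limma). The alanine aminotransferase genes Gpt and Gpt2 passed in opposite directions, with differences of 0.27 and -0.18. Bckdhb, Bckdk, Bcat2, Prodh, Gpt and Gpt2 were picked after their values were seen.

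Klf9 and Klf10 are also under circadian control, and of 15 clock genes 10 fell, 3 rose and 2 did not pass, with a median of -0.29. The repressor gene Per1 had the largest fall (-0.91), with 6.16, 6.14 and 6.15 in the MA group, against 7.05, 7.07 and 7.08 in the control group. Arntl, the activator, had the largest rise (0.69), with 6.86, 6.90 and 6.96 in the MA group, against 6.20, 6.19 and 6.27 in the control group. Nr1d2, the brightest, fell by 0.34. The hour of dissection is not given in the sources used here. Klf2, Klf4, Klf6 and Klf10 respond within hours to stimuli as immediate early genes do, and of 18 such genes 10 fell, 3 rose and 5 did not pass, with a median of -0.10. Junb had the largest fall (-0.74) and Jun, the brightest, fell too (-0.32), while Ccn1, a matricellular gene, rose by 0.71.

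Along the TGF-β pathway to Klf10, 10 of 13 genes fell, 1 rose and 2 did not pass, with a median of -0.15. The receptor gene Tgfbr1, the brightest, fell by 0.34, the feedback inhibitor gene Skil had the largest fall (-0.40), and the ligand gene Tgfb3 rose by 0.25. The ligand gene Tgfb1, picked after its values were seen, differed by 0.07 and did not pass (adjusted p = 0.311 by limma). The count thus pools inhibitor genes such as Skil with ligand and receptor genes. The lists overlap in part, with Per1 in both the clock and the glucocorticoid list and Dusp1 in the glucocorticoid and the immediate early list. Cebpd is in the glucocorticoid and the adipogenic list, and Klf11 in the TGF-β list. Adipoq and Fabp4 are in the adipogenic list and among the adipocyte markers. Several KLF proteins take part in adipogenesis. Of 8 genes in the adipogenic list, 5 fell, 2 rose and 1 did not pass, with a median of -0.26. Cebpa had the largest fall (-0.97), Adipoq, the adiponectin gene, the largest rise (0.64), and Fabp4, the brightest, fell by 0.22. Pparg, the other that rose (0.32), lay under the background in both groups and was picked after its values were seen.

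Markers of endothelial cells and macrophages, which express Klf2, Klf4 and Klf6, mostly fell as well. Markers of T cells and smooth muscle, named above for Klf2, Klf13 and Klf4, are given under other observations. Of 14 macrophage markers 12 fell, none rose and 2 did not pass, with a median of -0.70, and their summed linear level was 2039 to 2098 in the MA group and 3516 to 3589 in the control group. Lyz2, the brightest, had a difference of -0.69 and Aif1, with the largest fall, of -1.97, while Itgam, named for its level, lay under the background in both groups. Of 14 endothelial markers 11 fell, none rose and 3 did not pass, with a median of -0.17, and their summed linear level was 651 to 672 in the MA group and 743 to 774 in the control group. Egfl7, the brightest, had a difference of -0.24 and Flt1, with the largest fall, of -0.50, and Tie1, named for its level, lay under the background. The part of any of these cell types in the KLF falls was not tested. In RNA of whole muscle, fewer cells of a type and less RNA per cell cannot be told apart.

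Genes that KLF2 and KLF4 are known to control in endothelium numbered 10 on the array, of which 5 fell, 2 rose and 3 missed the threshold, with a median of -0.09. S1pr1, a receptor for sphingosine 1-phosphate, read 5.16, 5.07 and 5.10 in the MA group, against 5.65, 5.66 and 5.68 in the control group, and had the largest fall (-0.55). Plpp3, the brightest, fell by 0.14, and Ccn3 had the largest rise (0.22). Thbd, which encodes thrombomodulin, and Nos3, the endothelial nitric oxide synthase, differed by -0.38 and -0.14. Edn1 differed by -0.15 (adjusted p = 0.00455 by limma), and Vcam1, with -0.04, did not pass. Sele, the other gene that rose (0.11), lay under the background in both groups. Thbd, Nos3, Edn1, Vcam1 and Sele were picked after their values were seen. The list was not divided by the direction in which KLF2 and KLF4 control each gene.

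**Figure D5:**
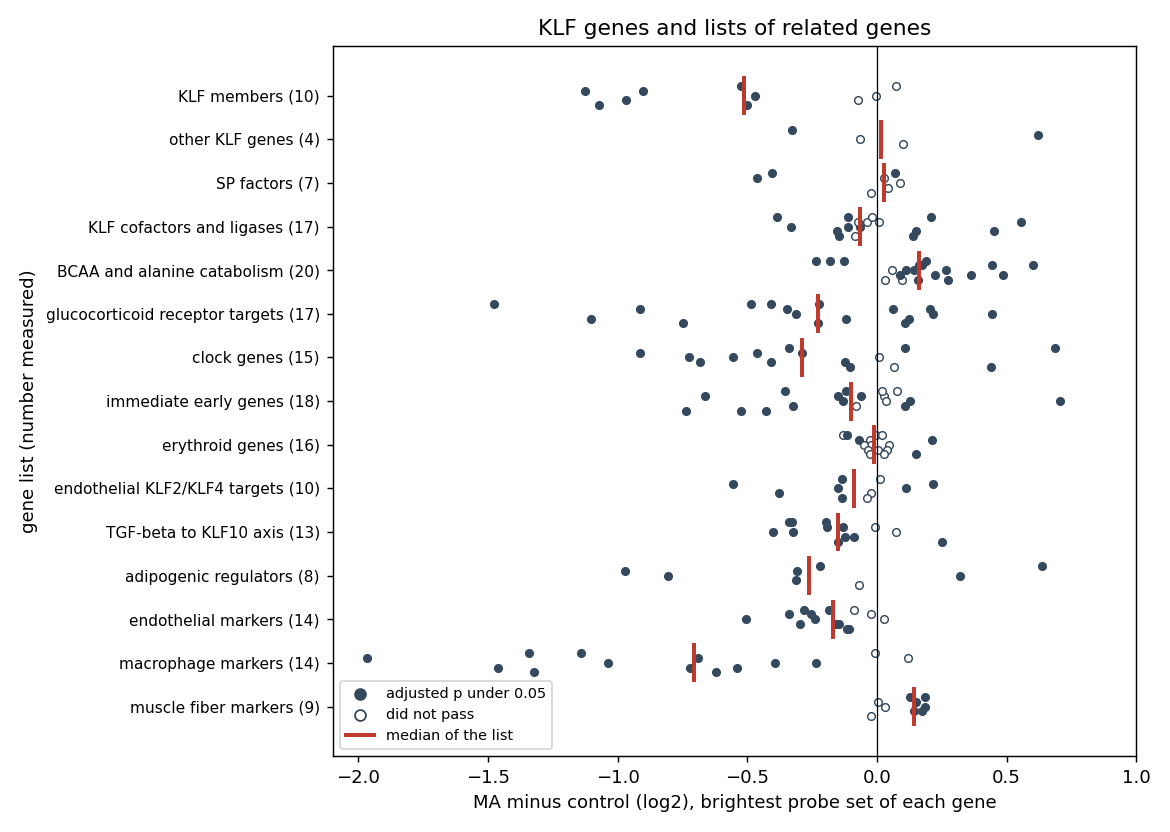
MA minus control on the log2 scale (x axis) for the brightest probe set of each gene. The y axis gives the KLF family and the lists of related genes or markers, with the number measured in brackets. Of the marker lists, only those of muscle fibers, endothelial cells and macrophages are drawn. Points are filled where the adjusted p was under 0.05, and a bar marks the median of each list. The KLF median was -0.51, against 0.16 for the amino acid catabolism genes and -0.70 for the macrophage markers.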

How the data were processed

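Total RNA of gastrocnemius muscle was hybridized to Affymetrix mouse PM array strips, 3 of the MA and 3 of the control group. The design text names a human array, but the study's methods and the probe sets are of the mouse array. The authors summarized the scans by RMA (Affymetrix Expression Console and Transcriptome Analysis Console are named in the submitters' processing notes) and deposited log2 values. Of 45141 probe sets, 104 array controls were set aside, leaving 45037, of which 28898 name 1 gene in the platform annotation, 551 several and 15588 none. The 2 groups were compared by limma 3.58.1 in R 4.3.3 (lmFit and eBayes, no covariates) with Benjamini-Hochberg adjustment at 0.05. An exact permutation test of 3 against 3 arrays cannot go below p = 0.1. For each gene the probe set with the highest mean was used. On simulated data for the same 45037 probe sets, 50 were changed at each fold and 44837 were left unchanged. There 20% of probe sets changed 1.1-fold, 80% changed 1.2-fold and 98% changed 1.5-fold were recovered. In the data 42.9% of probe sets passed, so the adjustment was less strict there and these shares need not hold for it. The number of arrays limits the precision.

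The genes named are the 10 KLF genes, the other KLF genes, and of each list the brightest member and those with the largest called rise and fall. Other genes, named after their values were seen, are marked so where they appear, and Itgam and Tie1 are named as markers under the background. The members and lists were chosen with earlier results of these data known. Alternatives were the methods' one-way test, fold limits, filters at the level of the nonspecific controls, other eBayes options, array weights, median centring, quantile normalization again, the mean of a gene's probe sets, the replicate block and leaving out each array. Same-numbered MA and control arrays deviated together with correlations of 0.188, 0.0416 and 0.142, so that the numbers were not taken to pair the arrays. Microarray strips and scan dates are not given in the sources used here, and batch could not be examined. Promoter sequences are of RefSeq GRCm38.p6, which matched 8 of the 10 genes.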

Additional observations from a re-analysis of the deposited data

How the results depend on the processing

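The 7 KLF genes that fell kept their direction and passed under all alternatives that gave a value, 130 of 130, and the number of KLF genes that fell was 7 to 8 and of probe sets 16 to 17 with each array left out in turn. The methods' one-way test with its fold limit and limma with a fold over 1.2 both gave 34 list genes lower and 15 higher and 1175 of all genes lower and 1012 higher, against 63, 39, 3938 and 4227 without the fold limit. After Benjamini-Hochberg adjustment and with no fold limit, the methods' test gave 59, 34, 3279 and 3390, with 7 KLF genes lower. A fold over the largest hybridization control difference (1.28-fold) gave 24, 12, 695 and 613. A filter at the all-GC control (7.33) kept a probe set when the mean of either group was over it, and so tested fewer genes. It left 4 KLF genes and 5 KLF probe sets lower, and 36 list genes lower and 18 higher. Of all genes, 1505 were lower and 1498 higher. Klf4 and Klf6 passed this filter only through the control group, with means of 7.84 and 7.81, against 6.94 and 6.84 in the MA group. Their falls under it are counted in the 130 but add no support. A filter at 3.95, chosen after seeing the data, gave 7 KLF genes and 16 probe sets. With each array left out, list genes lower were 58 to 63 and higher 32 to 38, and all genes lower 3309 to 3988 and higher 3514 to 4160.

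Values near 0 changed sign: Klf3 1431630_PM_a_at gave 0.00623 on quantile normalization again and -0.0619 to 0.000608 with an array left out (without control replicate 3), Klf3 1442920_PM_at -0.0699 to 0.0195 (without control replicate 2), and Klf5 -0.0129 to 0.00652 (without MA replicate 2). The cause was not tested. Klf3 1421604_PM_a_at, which fell by 0.25, lay under the 1.2-fold limit, and Klf3 1441200_PM_at passed without control replicate 3, at -0.0921. Klf1 ranged over 0.0252 (without control replicate 1) to 0.102 and did not pass. Klf15 passed without MA replicate 3 and ranged over -0.110 to -0.0489. With the replicate number as a block, 7 KLF genes and 16 probe sets fell, and 4306 of all genes rose and 4033 fell, and no call among the KLF genes changed. By deviations from the group means, and among arrays of the other diet only, 4 of the 6 arrays correlated best with that of their own number. The background limits Klf5, which could not be read.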

Other observations

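Markers of other cells in the muscle were also read, beside the 23.0% of all genes that fell and the 24.7% that rose. Of 10 T and NK cell markers 5 fell and 1 rose, with a median of -0.07, and 4 of the 10 lay under the background in both groups. Of 8 smooth muscle and pericyte markers 4 fell and 1 rose, with a median of -0.12. Of 8 fibroblast markers 4 rose and 1 fell, with a median of 0.10. Among 5 adipocyte markers 3 rose and 2 fell, with Adipoq and Fabp4 counted here again, and among 5 Schwann cell markers also 3 rose and 2 fell. Of 5 B cell markers 2 rose and none fell, of 6 neutrophil markers 2 rose and 1 fell, and of 5 keratinocyte markers 1 rose and 2 fell.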
